A study of Mus musculus with 4 samples.

Results

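Cxcl1, Cxcl2, Cxcl3, Cxcl5 and Cxcr2 encode ligands and the receptor that steer neutrophils, and their RNA was followed across the cell classes of mouse tumours. They were taken by gene symbol, and each symbol matched 1 feature, giving 5 of 55450 features in the deposited tables. MC38 is a line derived from a carcinoma of the mouse colon. KO tumours grew from MC38 cells with a knockout of Hnrnpa2b1, which encodes an hnRNP that binds RNA. WT tumours grew from MC38 cells that kept the gene. All cells were injected under the skin of the left flank of C57BL/6J mice aged 8 weeks, with no altered allele named for the hosts. There were 2 KO and 2 WT tumours, each dissociated with enzymes and sequenced as 1 droplet single-cell library, with no sorting stated. The sources used here do not say whether the KO cells were 1 clone or how long the tumours grew. The labels number the tumours within a group without saying what a number shares, so p-values measure only the spread between these tumours.

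CXCR2 is a G protein-coupled receptor of neutrophils, and its mouse ligands CXCL1, CXCL2, CXCL3 and CXCL5 carry a glutamate-leucine-arginine motif before their paired cysteines. Ligand binding activates inhibitory G proteins and drives neutrophils out of the bone marrow and into tissue. Transcription of the ligand genes is induced through NF-kappaB by interleukin 1, tumour necrosis factor and microbial signals, while interleukin 17 lengthens the life of their mRNA. In tumours the ligands can come from malignant cells, fibroblasts, macrophages and neutrophils themselves.

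The 4 ligand genes lay within 146.6 kb of chromosome 5 on the plus strand, with Cxcl15, Pf4 and Ppbp between them, and no other gene overlapped any of the 5 members (GRCm38). Cxcl5 lay at chr5:90759360-90761624, Cxcl3 at chr5:90786103-90789600, Cxcl1 at chr5:90891241-90893115 and Cxcl2 at chr5:90903871-90905938. Cxcr2 lay apart from them, at chr1:74153989-74161246. The promoters of Cxcl1, Cxcl2 and Cxcl3 are shown because they share a motif of the NF-kappaB type, the factor that induces these ligands. The sequences are from RefSeq (GRCm38.p6, plus strand) and run from 100 to 31 bases before the annotated start. Capitals mark matches to the motif, which is GGGA, any 4 bases and then CC, searched on both strands.
Cxcl1 promoter, chr5:90891145-90891214: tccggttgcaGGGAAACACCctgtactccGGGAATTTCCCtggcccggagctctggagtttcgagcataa
Cxcl2 promoter, chr5:90903799-90903868: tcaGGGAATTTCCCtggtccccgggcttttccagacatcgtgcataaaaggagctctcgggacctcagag
Cxcl3 promoter, chr5:90786001-90786070: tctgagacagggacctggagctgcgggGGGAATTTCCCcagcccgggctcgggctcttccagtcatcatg

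All 3 promoters held the same 11 bases, GGGAATTTCCC, which begin 71 bases before the start of Cxcl1, 97 before that of Cxcl2 and 73 before that of Cxcl3. In these 11 bases the motif matches on each strand, and the matches overlap. Cxcl1 held a further match, GGGAAACACC, 90 bases before its start. Over windows of 250 bases before to 50 bases after the start, 6810 of 32851 mouse promoters (20.73%) held the motif, while the 11-base form, noticed after the search, was in 12 (0.037%). A match is a description of the sequence and not a bound site. In the same window of Cxcr2 these letters had no match. Cxcl5 is named only.

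Libraries of the KO tumours held 9547 and 9578 barcodes with medians of 5779 and 5854.5 UMIs (unique molecular identifiers, each standing for 1 captured RNA molecule), and those of the WT tumours held 12741 and 11628 barcodes with medians of 10384 and 7972. Pairs of libraries shared 21 to 41 barcodes. After removal of likely doublets, 8648 and 8771 cells of the KO tumours and 11344 and 10173 cells of the WT tumours were analysed. Epithelial markers were nearly absent, so clusters with little Xist and little Ptprc RNA stand in for the injected cells and are called Xist-low cells. Xist coats the silenced X chromosome in cells of female mice, and Ptprc is the gene of CD45, found on all leukocytes. This class rule was set with the data in view. Hnrnpa2b1 fell in Xist-low cells, with 357 and 326 CPM in KO tumours against 564 and 553 CPM in WT tumours (log2 fold change -0.71, SE 0.127, edgeR adjusted p = 0.036). No other class passed for Hnrnpa2b1, and the sources used here do not say where its gene was edited.

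Different clusters held the Xist-low cells of the KO and WT tumours. Cluster 0, led by Gja4 and Krt16, held 71.6% and 75.5% of them in KO tumours, against 6.97% and 10.1% in WT tumours. Cluster 1, led by Lbp and Prelp, held 0.964% and 0.772% in KO tumours, against 23.3% and 31.4% in WT tumours. Clusters 3 (led by Phlda2 and Tnnt2) and 4 (cycling cells with histone genes) also held mostly WT cells. Mononuclear phagocytes of the KO tumours lay mostly in clusters 2 (led by Ly6i and Nos2) and 7 (Pf4 and Ms4a7), and those of the WT tumours in clusters 2 and 8 (Mmp13 and Mmp12). Class values below therefore compare different mixtures of states.

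Xist-low cells held most of the Cxcl1 RNA of every tumour. Their share of all Cxcl1 UMIs was 69.7% and 84.2% in KO tumours and 94.1% and 94.9% in WT tumours. Fibroblasts, the collagen-producing stromal cells, held 19.6% and 9.32% in KO tumours, against 3.0% and 1.31% in WT tumours. Xist-low cells made up 16.8% and 31.0% of analysed cells in KO tumours and 76.4% and 70.5% in WT tumours, so these shares reflect class size as well as level.

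**Figure D1:**
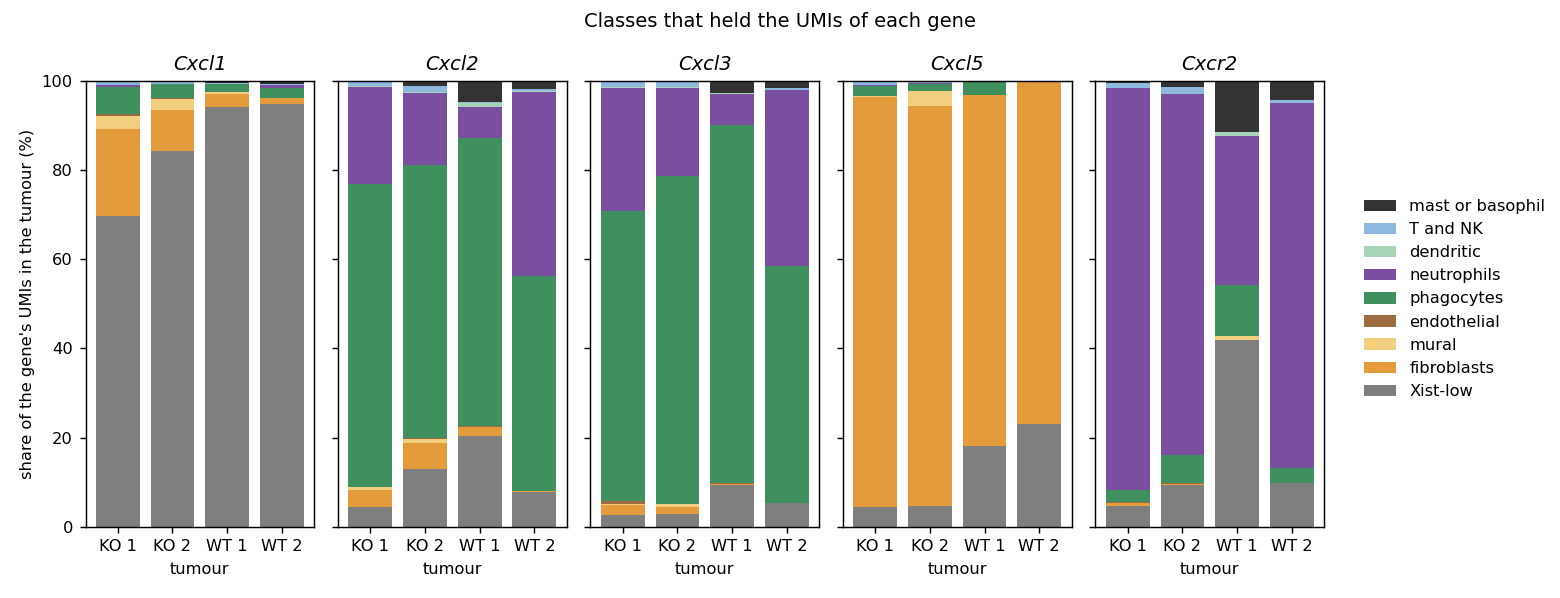
Share of the UMIs of each gene (vertical axis, %) that lay in each cell class, with 1 stacked bar per tumour and KO tumours on the left. Xist-low cells held 69.7% to 94.9% of Cxcl1 UMIs, phagocytes and neutrophils most of the Cxcl2 and Cxcl3 UMIs, and fibroblasts 76.9% to 92.1% of the Cxcl5 UMIs.

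Levels per class are given as CPM, in which UMIs of the gene are divided by all UMIs of the class and multiplied by a constant. Cxcl1 was higher in fibroblasts than in Xist-low cells in 3 of the 4 tumours. Fibroblasts had 1163 and 967 CPM in KO tumours and 352 and 111 CPM in WT tumours. Xist-low cells had 484 and 364 CPM in KO tumours and 216 and 120 CPM in WT tumours. WT tumour 2 was the exception, with nearly equal values in these classes. Mononuclear phagocytes had 90.4 and 61.9 CPM in KO tumours and 60.5 and 48.7 CPM in WT tumours, below both. T and NK cells, taken here as background, had 30.2 and 22.9 CPM in KO tumours and 32.9 and 9.10 CPM in WT tumours.

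**Figure D2:**
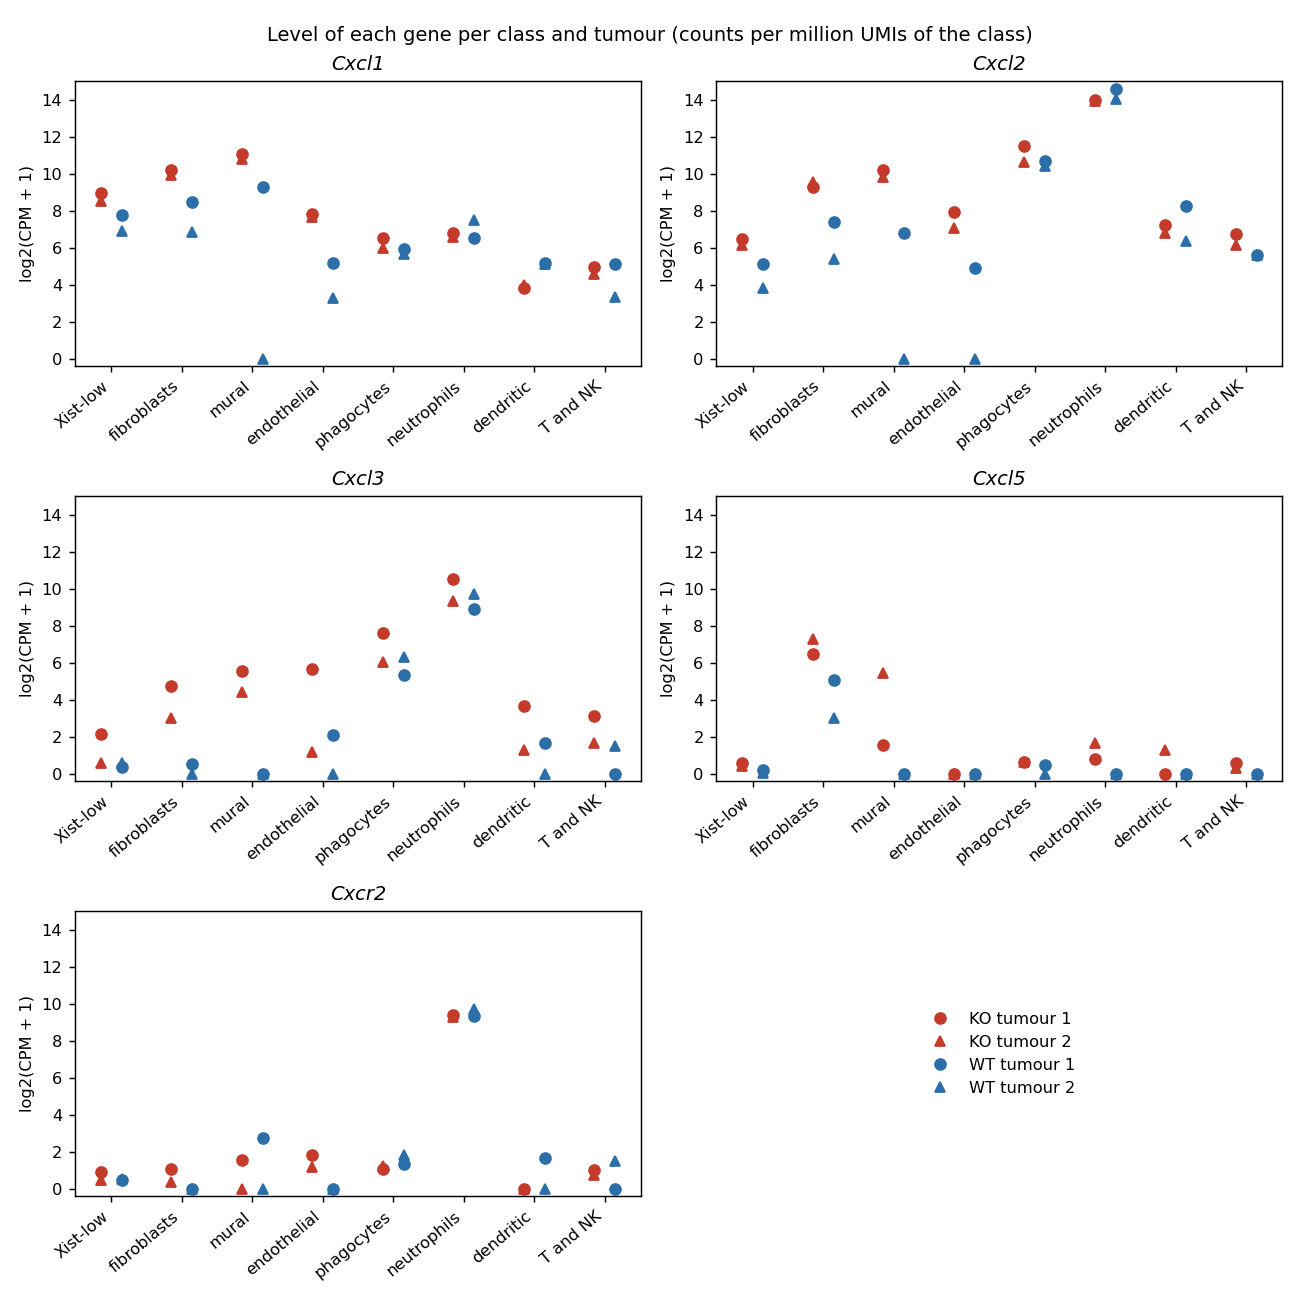
Level of each gene as log2(CPM + 1) per cell class (horizontal axis) and tumour, with red points for KO and blue points for WT tumours, and circles for tumour 1 and triangles for tumour 2. Cxcl1 is spread over stromal and Xist-low cells, Cxcl2 and Cxcl3 are highest in neutrophils and, next to them, phagocytes among the classes shown, Cxcl5 is highest in fibroblasts, and Cxcr2 stands out in neutrophils. The mural class of WT tumour 2 rests on 2 cells.

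Cxcl1 was higher in Xist-low cells of both KO tumours than of both WT tumours, but its adjusted p missed the threshold. After TMM scaling it had 457 and 371 CPM in KO tumours against 222 and 121 CPM in WT tumours, a log2 fold change of 1.27 (SE 0.285, edgeR adjusted p = 0.0517). The groups did not overlap, and WT tumour 2 was lowest. Of 16 alternative settings 10 put it past 0.05, with edgeR or DESeq2 adjusted p-values as high as 0.761. Leaving out WT tumour 1 or WT tumour 2 gave 1.77 or 0.89, both past the threshold. It did not pass with KO tumour 1 or KO tumour 2 left out. With every cell thinned to 1000 UMIs, 27.4% and 23.4% of Xist-low cells in KO tumours held Cxcl1, against 17.0% and 8.95% in WT tumours. The same share in T and NK cells was 3.18% and 1.78% in KO tumours and 3.96% and 1.34% in WT tumours. As counted, the Xist-low shares were 82.6% and 75.6% in KO tumours, at median depths of 38543.5 and 31456 UMIs, and 56.3% and 35.5% in WT tumours, at 11892 and 11645 UMIs. Median depths of T and NK cells were 3900 and 2830 UMIs in KO tumours and 1986 and 2070 UMIs in WT tumours.

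Of the 5 members tested in Xist-low cells 0 passed, where 3.48% of 18040 genes rose and 3.39% fell. Both KO values lay above both WT values for 4 of the 5, as they did for 29.5% of genes. Cxcl3 was rare there, with 3.24 and 0.517 CPM in KO tumours against 0.312 and 0.480 CPM in WT tumours (log2 fold change 2.23, SE 0.807, edgeR adjusted p = 0.131), and KO tumour 1 alone stood apart. Cxcr2 overlapped between the groups.

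The Xist-low clusters had unlike values. In cluster 12, led by the interferon-induced gene Ifit3, Cxcl1 rose to 1164 and 1081 CPM in KO tumours, against 316 and 134 CPM in WT tumours (log2 fold change 2.33, SE 0.348, edgeR adjusted p = 0.0117 within the cluster). In cluster 0 it had 420 and 373 CPM in KO tumours and 207 and 123 CPM in WT tumours (1.27, edgeR adjusted p = 0.0682). In cluster 3 the values were 174 and 102 CPM in KO tumours and 157 and 140 CPM in WT tumours, and they overlapped (-0.13, edgeR adjusted p = 0.761). Cluster 1 held only 14 and 21 cells in KO tumours, with 562 and 1202 CPM, against 547 and 176 CPM in WT tumours. The clusters were separated after the class results were seen, and differences between clusters were not tested.

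**Figure D3:**
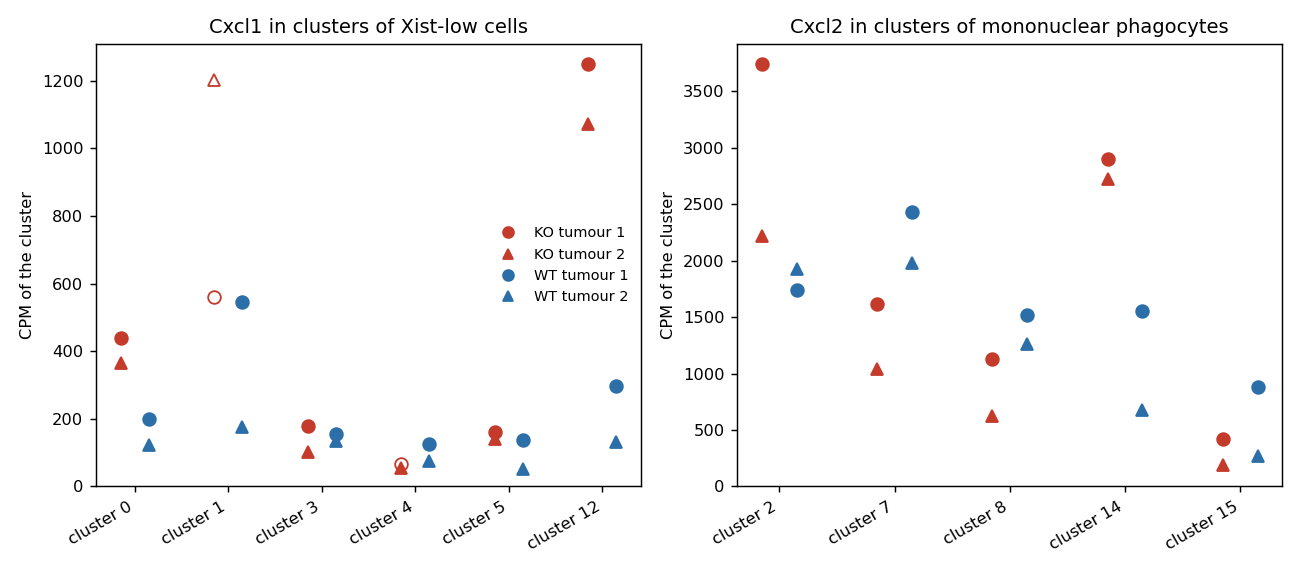
CPM of Cxcl1 in the clusters of Xist-low cells (left) and of Cxcl2 in the clusters of mononuclear phagocytes (right), with KO tumours in red to the left of WT tumours in blue. Open symbols are sums of fewer than 50 cells. Cxcl1 stands highest in cluster 12 of the KO tumours and in the few KO cells of cluster 1, while Cxcl2 is higher in KO tumours in clusters 2 and 14, and its fitted values are lower in KO tumours in clusters 7, 8 and 15. None of these passed the test for Cxcl2.

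In fibroblasts all 4 tested members were higher in both KO tumours than in both WT tumours, and none passed the test across 11319 genes. Of those genes 0% were called as rising, and 16.6% had both KO values above both WT values. No gene of any kind changed in fibroblasts by edgeR, and DESeq2 called 50. An unadjusted edgeR p under 0.05 was held by 543 genes (4.8%), a share close to that threshold itself. Cxcl1 had 1182 and 986 CPM in KO tumours against 343 and 113 CPM in WT tumours (log2 fold change 2.25, SE 0.595, edgeR adjusted p = 0.79). Thinned to 1000 UMIs, 55.3% and 52.4% of fibroblasts in KO tumours held Cxcl1, against 21.2% and 12.3% in WT tumours. In percentage points, these KO shares stood apart from the WT shares by more than the spread within each group. WT tumour 2 was low in each ligand, and leaving out WT tumour 1 or WT tumour 2 gave 3.26 or 1.66 for Cxcl1, 4.09 or 2.08 for Cxcl2 and 4.11 or 1.93 for Cxcl5.

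Clusters of fibroblasts were unevenly filled, yet Cxcl1 showed the same order in each. Cluster 16, led by Clec3b and Pi16, held 80.1% and 27.9% of fibroblasts in KO tumours and 23.2% and 88.5% in WT tumours. There Cxcl1 had 1291 and 1039 CPM in KO tumours and 460 and 88.5 CPM in WT tumours. In cluster 17, led by Tnc and Lrrc15, it had 845 and 955 CPM in KO tumours and 325 and 235 CPM in WT tumours. Several of these sums hold fewer than 50 cells, and they were not tested.

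Cxcl2, a ligand that macrophages and neutrophils release early in inflammation, lay mainly in phagocytes and neutrophils. Phagocytes held 67.9% and 61.3% of its UMIs in KO tumours and 64.7% and 48.2% in WT tumours. Neutrophils held 21.7% and 16.1% in KO tumours and 6.98% and 41.4% in WT tumours. The WT values lie far apart, and WT tumour 1 gave 50 neutrophils while WT tumour 2 gave 352. By CPM of the class, neutrophils had 16356 and 15359 CPM in KO tumours and 24423 and 16550 CPM in WT tumours, above every other class in each tumour. A small cluster named for mast cell and basophil markers, although these summed to 7.15 CPM in its WT tumour 2 cells with 6 of 9 at 0, had 373 and 3515 CPM in KO tumours (12 and 25 cells) and 874 and 217 CPM in WT tumours (65 and 83 cells), above the phagocytes in KO tumour 2.

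In mononuclear phagocytes Cxcl2 had higher values in KO tumours but did not pass. It had 2806 and 1688 CPM in KO tumours against 1558 and 1380 CPM in WT tumours (log2 fold change 0.61, SE 0.315, edgeR adjusted p = 0.378). KO tumour 1 was high, and KO tumour 2 was close to WT tumour 1. Cxcl1 had 89.2 and 65.1 CPM in KO tumours against 58.2 and 49.1 CPM in WT tumours (0.52, edgeR adjusted p = 0.294). Of the 4 members tested in phagocytes 2 had both KO values above both WT values, against 25.7% of 13563 genes, and 0 rose, against 0% of genes. By edgeR no gene changed in this class, 2302 (17%) had an unadjusted p under 0.05, and DESeq2 called 489.

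The fitted direction of Cxcl2 was not the same in every phagocyte cluster, and differences between clusters were not tested. In cluster 14, led by Retnla and Lyve1, it had 2912 and 2876 CPM in KO tumours and 1561 and 705 CPM in WT tumours (log2 fold change 1.36, edgeR adjusted p = 0.163). In cluster 7 it had 1595 and 1068 CPM in KO tumours and 2284 and 2128 CPM in WT tumours (-0.73, edgeR adjusted p = 0.613). Clusters 8 and 15 also had lower fitted values in KO tumours, with log2 fold changes of -0.84 and -0.91. Cxcl1 rose in cluster 14, with 259 and 311 CPM in KO tumours against 102 and 61.7 CPM in WT tumours (1.81, SE 0.328, edgeR adjusted p = 0.0338 within the cluster). Cluster 14 was the phagocyte cluster with the fewest KO tumour 2 cells, 74.

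Cxcl2 in neutrophils did not pass the test between the groups. After TMM scaling they had 16840 and 16932 CPM in KO tumours and 24032 and 19333 CPM in WT tumours (log2 fold change -0.36, SE 0.423, edgeR adjusted p = 0.762). Both KO values lay below both WT values, as they did for 24.1% of the 4663 genes tested. At 1000 UMIs per cell, 95.8% and 97.8% of neutrophils in KO tumours held a Cxcl2 UMI, and 100% and 93.2% in WT tumours. T and NK cells held it in 10.4% and 4.95% of cells in KO tumours and 4.27% and 3.03% in WT tumours. After TMM scaling their Cxcl2 level was 98.8 and 68.7 CPM in KO tumours against 44.2 and 54.2 CPM in WT tumours (log2 fold change 0.78, SE 0.22, edgeR adjusted p = 0.0966). The groups did not overlap, and the log2 fold change was 0.08 with free RNA subtracted. Neutrophils were shallow, with median depths of 1884 and 1179 UMIs in KO tumours and 1014 and 1068.5 UMIs in WT tumours.

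Cxcl2 in fibroblasts had 631 and 752 CPM in KO tumours against 164 and 40.8 CPM in WT tumours (log2 fold change 2.75, SE 0.702, edgeR adjusted p = 0.79). The groups did not overlap, and WT tumour 2 was lowest. Thinned to 1000 UMIs, 31.5% and 28.3% of fibroblasts held Cxcl2 in KO tumours, against 10.6% and 2.96% in WT tumours. The WT tumour 2 share did not exceed the T and NK cell share of that tumour, which is taken as background. Summed phagocyte markers in fibroblasts were 724 and 496 CPM in KO tumours and 429 and 419 CPM in WT tumours, and their part in the Cxcl2 values was not tested.

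Cxcl2 in Xist-low cells had 81.4 and 70.8 CPM in KO tumours against 34.6 and 13.5 CPM in WT tumours (log2 fold change 1.66, SE 0.398, edgeR adjusted p = 0.0572). However, only 7.77% and 5.40% of thinned Xist-low cells held it in KO tumours and 2.91% and 1.72% in WT tumours, at or close to the T and NK cell shares above. At equal depth these shares did not stand clear of the T and NK cell shares. Deeper cells lose more of their UMIs in thinning, so equal-depth shares are not a test of background. As counted, Xist-low cells held 4794 and 5895 Cxcl2 UMIs in 1452 and 2721 cells of KO tumours. In WT tumours they held 3881 and 1290 in 8671 and 7173 cells. T and NK cells held 1212 and 622 in 2496 and 2607 cells of KO tumours. Their WT counts were 82 and 79 in 680 and 660 cells. Xist-low cells were deeper, and whether their Cxcl2 is background was not tested. Summed markers of phagocytes in Xist-low cells were 300 and 227 CPM in KO tumours and 197 and 92.2 CPM in WT tumours, and those of neutrophils were 30.5 and 16.0 CPM in KO tumours and 11.2 and 15.3 CPM in WT tumours. Of 12 phagocyte markers 0 rose, of 9 tested neutrophil markers 1 rose, and of 15 T and NK markers 5 rose in these cells, where 3.48% of all genes rose. The part of such RNA in the Cxcl2 difference was not tested. For Cxcl1, the Xist-low level exceeded that of phagocytes and of T and NK cells in every tumour. It exceeded that of neutrophils in each tumour but WT tumour 2.

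**Figure D4:**
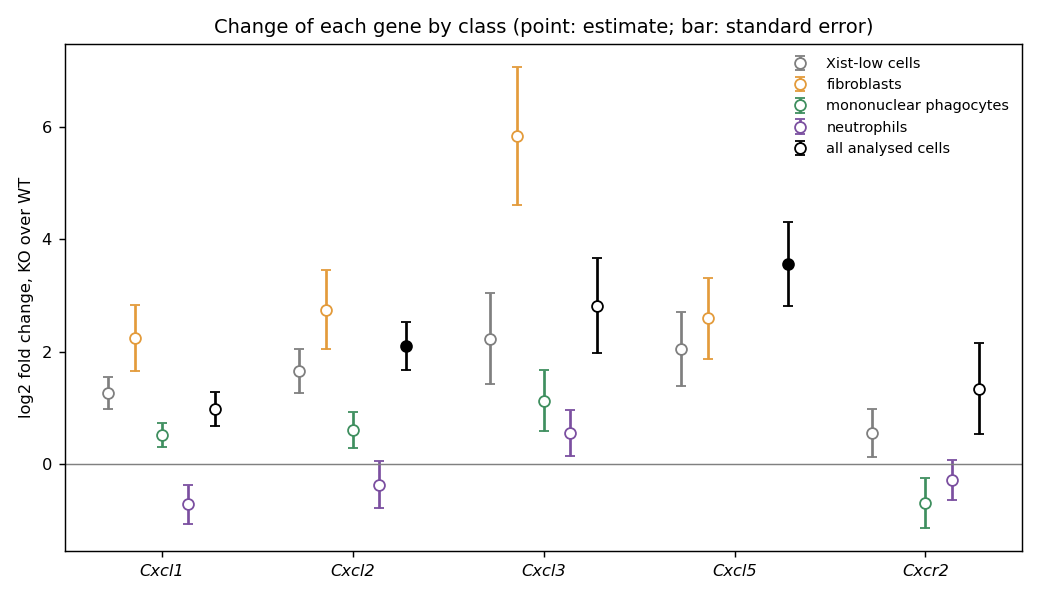
Log2 fold change of each gene, KO over WT, by class, with bars of 1 standard error and filled points for an edgeR adjusted p under 0.05. Only Cxcl2 and Cxcl5 in the sum of all analysed cells are filled, at 2.10 and 3.57. The Cxcl3 point of fibroblasts rests on 1 UMI in the WT tumours.

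Cxcl3, a close relative of Cxcl2, followed the same classes. Phagocytes held 65.2% and 73.4% of its UMIs in KO tumours and 80.2% and 53.2% in WT tumours. In neutrophils it had 1500 and 699 CPM in KO tumours and 470 and 965 CPM in WT tumours (log2 fold change 0.55, SE 0.41, edgeR adjusted p = 0.579). In phagocytes it had 188 and 67.2 CPM in KO tumours and 37.8 and 79.4 CPM in WT tumours (1.13, SE 0.543, edgeR adjusted p = 0.352). Each group overlapped the other in both classes, and KO tumour 1 was highest in each.

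Fibroblasts of the KO tumours held 170 and 25 Cxcl3 UMIs, against 1 and 0 in the WT tumours, where a count of 0 allows up to 2.08 CPM. The ratio of pooled levels was 72.0, with a 95% exact interval of 12.8 to 2860 that covers counting error only. The edgeR adjusted p was 0.626. Of 3531 stretches of 30 bases in Cxcl3 transcripts, 198 also occur in other genes, with 165 in Cxcl2. Reads within the latter could not be told apart between this pair by sequence, and their share was not measured. Cxcl1 shared no such stretch with any gene.

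Cxcl5, a ligand known from epithelial and stromal cells, lay mostly in fibroblasts. Fibroblasts held 92.1% and 89.7% of its UMIs in KO tumours and 78.7% and 76.9% in WT tumours. The tumours held 618 and 600 Cxcl5 UMIs in the KO group, against 94 and 13 in the WT group. Fibroblasts had 89.0 and 155 CPM in KO tumours against 31.9 and 7.04 CPM in WT tumours (log2 fold change 2.60, SE 0.717, edgeR adjusted p = 0.812). The groups did not overlap.

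Both fibroblast clusters held Cxcl5. Cluster 16 had 64.9 and 131 CPM in KO tumours and 2.2 and 4.1 CPM in WT tumours, and cluster 17 had 144 and 156 CPM in KO tumours and 40.3 and 22.2 CPM in WT tumours. Cluster 17 was higher than cluster 16 in each tumour. Among mural cells, the contractile cells around small vessels, KO tumour 2 had 42.2 CPM and KO tumour 1 had 1.96 CPM, while WT tumours had no Cxcl5 UMI in 30 and 2 cells, which allows up to 17.1 and 764 CPM. In Xist-low cells Cxcl5 was at most 0.487 CPM. Neutrophils held 1 Cxcl5 UMI in each KO tumour and none in the WT tumours, too few for a fold.

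Summed over all analysed cells of a tumour, Cxcl2 and Cxcl5 rose in the KO tumours. Cxcl2 had 963 and 385 CPM in KO tumours against 155 and 159 CPM in WT tumours (log2 fold change 2.10, SE 0.425, edgeR adjusted p = 0.0265). Cxcl5 had 5.58 and 5.09 CPM in KO tumours against 0.765 and 0.124 CPM in WT tumours (3.57, SE 0.743, edgeR adjusted p = 0.0286). These were 2 of 5 members, where 12.8% of 20154 genes rose and 4.71% fell, and 4 of 5 members had both KO values above both WT values, where 32.2% of genes did. Without WT tumour 1 or WT tumour 2 the call for Cxcl2 was lost at 2.07 and 2.11, and without KO tumour 1 that for Cxcl5 was lost at 3.49. Cxcl3 (2.82, edgeR adjusted p = 0.0679), Cxcl1 (0.99, edgeR adjusted p = 0.0723) and Cxcr2 (1.35, edgeR adjusted p = 0.28) did not pass.

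In such whole-tumour sums more cells of a class and more RNA per cell cannot be told apart. Phagocytes, the main holders of Cxcl2, made up 39.2% and 28.8% of analysed cells in KO tumours against 13.3% and 16.0% in WT tumours. Fibroblasts, which held most Cxcl5, made up 4.19% and 2.82% in KO tumours against 1.68% and 2.05% in WT tumours. T and NK cells made up 28.9% and 29.7% in KO tumours against 5.99% and 6.49% in WT tumours. They were the class whose share rose (log2 ratio 2.23, edgeR adjusted p = 0.0227 over 9 classes). It did not pass with the replicate block (2.23, edgeR adjusted p = 0.193) or as a share of immune cells (0.67, edgeR adjusted p = 0.201). Without KO tumour 1 or KO tumour 2 the log2 ratio was 2.25 or 2.21, and the call was lost each time.

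Cxcr2, the receptor gene, lay mainly in neutrophils, and it was not used to cluster or name them. Neutrophils had 672 and 619 CPM in KO tumours and 643 and 845 CPM in WT tumours. Phagocytes had 1.14 and 1.32 CPM in KO tumours and 1.58 and 2.55 CPM in WT tumours. Neutrophils held 90.1% and 80.8% of Cxcr2 UMIs in KO tumours and 33.3% and 81.9% in WT tumours. In WT tumour 1, which had 50 neutrophils and 105 Cxcr2 UMIs in all, Xist-low cells held 41.9%.

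The receptor level of neutrophils did not separate the groups. After TMM scaling Cxcr2 had 692 and 683 CPM in KO tumours and 633 and 987 CPM in WT tumours (log2 fold change -0.28, SE 0.352, edgeR adjusted p = 0.781). Thinned to 1000 UMIs, 40.5% and 38.7% of neutrophils in KO tumours held a Cxcr2 UMI, and 48.1% and 42.9% in WT tumours. These shares rest on 645 and 269 cells in KO tumours and on 27 and 191 cells in WT tumours. Of T and NK cells 0.122% held it in KO tumour 1. In KO tumour 2 none of 2525 did, and in WT tumours none of 656 and of 595, which allows shares of up to 0.119%, 0.457% and 0.504%. Of the 4 members tested in neutrophils 0 rose, against 0% of genes, and 0 had both KO values above both WT values, against 26% of genes. By edgeR no neutrophil gene changed, 678 (14.5%) had an unadjusted p under 0.05, and DESeq2 called 9.

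**Figure D5:**
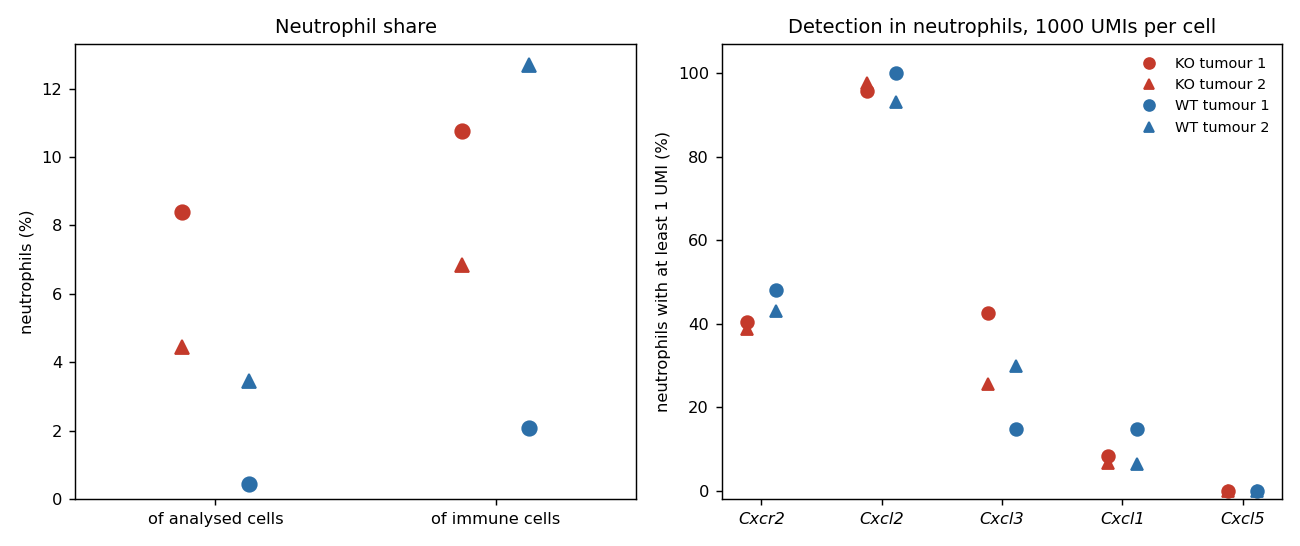
Neutrophils as a percentage of analysed cells and of immune cells (left), and percentage of neutrophils with at least 1 UMI of each gene after thinning to 1000 UMIs (right), with KO tumours in red to the left of WT tumours in blue. WT tumour 1 is lowest on the left with 50 neutrophils, and the Cxcr2 shares lie between 38.7% and 48.1%.

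Neutrophils themselves were a larger share of the KO tumours, but not beyond the spread. They made up 8.38% and 4.44% of analysed cells in KO tumours against 0.441% and 3.46% in WT tumours (log2 ratio 1.72, SE 1.12, edgeR adjusted p = 0.203). Of immune cells they made up 10.8% and 6.86% in KO tumours and 2.07% and 12.7% in WT tumours, so the groups overlapped (0.25, edgeR adjusted p = 0.813). Without WT tumour 2 the ratio was 3.86 (edgeR adjusted p = 0.0214), with adjusted p-values of 0.0214 to 0.813 over 8 alternatives. The WT arm was then 1 tumour with 50 neutrophils.

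The KO against WT change of Cxcl1 and Cxcl2 differed between Xist-low cells and neutrophils. The change in Xist-low cells was larger by 1.89 (log2) for Cxcl1 (SE 0.452, edgeR adjusted p = 0.0279) and by 1.87 for Cxcl2 (SE 0.456, edgeR adjusted p = 0.0352), where 0.153% of 16365 genes passed. The shares of thinned Xist-low cells with Cxcl2 did not stand clear of the T and NK cell shares, which is not a test of background. Xist-low Cxcl2 had 86.4 and 69.5 CPM in KO tumours and 33.7 and 13.3 CPM in WT tumours. These values lay close to or below those of T and NK cells. The latter had 104 and 69.2 CPM in KO tumours and 46.5 and 47.9 CPM in WT tumours. Xist-low cells were deeper than T and NK cells, and whether their Cxcl2 is background was not tested. Without WT tumour 2 the difference of Cxcl1 was 0.27 and no longer passed. Leaving out KO tumour 1 (1.75 and 1.84) or KO tumour 2 (1.94 and 2.02) ended both calls, and neither difference passed with DESeq2. Against phagocytes the differences were 0.81 and 1.24 (edgeR adjusted p = 0.133 and 0.156), where 0.257% of genes passed. Against fibroblasts they were -1.13 and -1.24 (edgeR adjusted p = 0.729 and 0.668), where 0% of genes passed.

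Genes upstream of the ligands and in receptor signalling were read from a list of 40. In Xist-low cells 5 of 35 tested genes rose and 0 fell, where 3.48% of all genes rose and 3.39% fell, with a median log2 fold change of 0.815 against -0.01 over all genes. Some list genes with a high fitted fold had little RNA there, are known from leukocytes and did not pass. Rac2, a GTPase of leukocytes, had 8.75 and 4.24 CPM in KO tumours and 3.69 and 1.19 CPM in WT tumours (1.40, edgeR adjusted p = 0.161). Vav1, an exchange factor of blood cells, had 1.82 and 1.14 CPM in KO tumours and 0.803 and 0.480 CPM in WT tumours (1.19, edgeR adjusted p = 0.104). Of the T and NK markers 5 of 15 rose in Xist-low cells, as given above, and the part of leukocyte RNA in the list's median was not tested. Some signalling genes at higher levels had small fitted folds, such as Rela with 0.23, Il17ra with 0.37 and Gnai2 with -0.07, and none of these passed. Other list genes at higher levels rose, such as Nfkbia and Nfkb1, given below. Rac2, Vav1, Rela, Il17ra and Gnai2 were picked as examples after their values were seen. The genes that rose belong to the NF-kappaB pathway. Nfkbiz, a nuclear coactivator, had 93.6 and 90.3 CPM in KO tumours against 39.8 and 34.9 CPM in WT tumours (1.30, SE 0.11, edgeR adjusted p = 0.013). Nfkbia, the inhibitor that NF-kappaB itself induces, had 1080 and 1223 CPM in KO tumours against 570 and 382 CPM in WT tumours (1.28, edgeR adjusted p = 0.033).

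Tnfaip3, which encodes the feedback inhibitor A20, had 31.0 and 22.3 CPM in KO tumours against 13.8 and 10.4 CPM in WT tumours (log2 fold change 1.14, edgeR adjusted p = 0.0367). Nfkb1, a subunit gene of the factor, had 100 and 103 CPM in KO tumours against 51.6 and 63.9 CPM in WT tumours (0.82, edgeR adjusted p = 0.0295). Zc3h12a, whose product Regnase-1 degrades inflammatory mRNAs, had 23.7 and 17.6 CPM in KO tumours against 12.01 and 11.7 CPM in WT tumours (0.80, edgeR adjusted p = 0.0438). In each of these 5 genes, picked because they passed on the same sums, the groups did not overlap. Both KO values lay above both WT values for 27 of the 35 tested list genes and for 29.5% of all genes. Without KO tumour 1 the calls of Nfkb1 (0.84), Nfkbia (1.37), Tnfaip3 (0.89) and Zc3h12a (0.57) were lost, and without KO tumour 2 those of Nfkb1 (0.80) and Nfkbia (1.18). Within cluster 3 none of the 5 passed, with Nfkbia at 0.34 and Nfkbiz at 0.44. With free RNA subtracted all 5 passed (edgeR adjusted p from 0.00904 to 0.0387, and from 5.39e-18 to 0.954 over all their alternatives by edgeR or DESeq2).

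In fibroblasts, phagocytes and neutrophils 0 genes of the list passed. In T and NK cells 2 of 33 tested genes rose and 1 fell, where 1.22% of 12558 genes rose and 0.916% fell. Nfkb1 rose there to 456 and 494 CPM in KO tumours against 181 and 239.5 CPM in WT tumours (log2 fold change 1.18, edgeR adjusted p = 0.0251), Pf4 also rose (1.19, edgeR adjusted p = 0.03), and Csf2 fell (-2.01, edgeR adjusted p = 0.0235). The list had 28 tested genes in fibroblasts (median log2 fold change 0.538 against -0.028 over all genes), 34 in phagocytes (0.316 against -0.016) and 27 in neutrophils (0.117 against 0.014). Il1b, an inducer of the ligands, had 3554 and 3393 CPM in phagocytes of KO tumours against 2398 and 1927 CPM in WT tumours (0.68, edgeR adjusted p = 0.269). In neutrophils Il1b had 10609 and 10986 CPM in KO tumours and 10995 and 9784 CPM in WT tumours, and the groups overlapped (0.06, edgeR adjusted p = 0.974). Csf3, the growth factor of neutrophils, had 28.8 and 14.1 CPM in fibroblasts of KO tumours against 3.45 and 0.704 CPM in WT tumours (3.21, edgeR adjusted p = 0.683). Its receptor gene Csf3r, also a marker used to name the class, had 815 and 1296 CPM in neutrophils of KO tumours and 470 and 819 CPM in WT tumours (0.64, edgeR adjusted p = 0.459). Il17a had 31.5 and 48.9 CPM in T and NK cells of KO tumours and 22.1 and 40.5 CPM in WT tumours, with overlap (0.39, edgeR adjusted p = 0.514). At Leiden resolution 2.0 its fold was 3.34 (edgeR adjusted p = 0.0152, with a range of 0.0152 to 0.997 over 11 alternatives). Over all analysed cells 23 of 39 list genes rose and 0 fell, where 12.8% of all genes rose, under the same limit on class shares.

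Across 20 sums of 5 classes and 4 tumours, each member had its own closest genes by Pearson correlation of log2(CPM + 1) among 8968 genes, given as a description. Sums of 1 tumour share a library, and class differences dominate these values. Cxcl1 was closest to Jun (r = 0.927), Ckap4 (0.901), Cask (0.893), Phlda1 (0.888) and Slit2 (0.873). Cxcl2 was closest to Sat1 (0.986), Olr1 (0.977), Il1a (0.975), Gcnt2 (0.968) and Rnf149 (0.968). Cxcl3 was closest to Hcar2 (0.978), Il1a (0.978), Ets2 (0.974), Mcl1 (0.973) and Nlrp3 (0.971). The lists share Il1a, and Cxcl2 and Cxcl3 correlated with each other at 0.964. Cxcl5 was closest to Cck (0.981), Grem1 (0.976), Tnn (0.973), Ccbe1 (0.968) and Piezo2 (0.967). Cxcr2 was closest to Gm20406 (0.994), Retnlg (0.991), Stfa2l1 (0.989), Il1f9 (0.989) and Gm39321 (0.988), of which Retnlg and Stfa2l1 are markers used to name neutrophils. Cxcl1 and Cxcl2 correlated at 0.078.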

How the data were processed

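Single-cell RNA was measured in 4 tumours, 2 KO and 2 WT, grouped by the sample titles. Deposited values are counts: whole UMIs per gene and barcode, not normalized. Per the labels' protocols the authors used Cell Ranger 5.0.1 with mm10, but the file headers give version 6.1.2. Seurat 5.1.0 appears in the submitters' processing notes with no stated role. Libraries held 114136609 and 132490304 UMIs in KO tumours and 153162562 and 123655955 in WT tumours. The labels give no batch.

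The members, marker lists, pathway list and tests were chosen with earlier results of these data known. Barcodes needed 300 genes, 500 UMIs and no more than 20% mitochondrial UMIs. The cells with the highest Scrublet scores were removed, at 0.8% per 1000 barcodes (715 and 728 cells in KO tumours, 1288 and 1043 in WT tumours). The threshold that Scrublet chose by itself, not used, would have marked 3.3% and 4.34% in KO tumours and 0% in WT tumours. Cells of all libraries were clustered together with scanpy 1.11.5 in Python 3.11.15 (2000 variable genes without the members, 30 components, 15 neighbours, Leiden resolution 1.0 with leidenalg 0.10.2), with no batch integration. Clusters took the class with at least 3 markers, each in 10% of cells and at 2 times the mean elsewhere, and class names mean cells like that type. Xist-low cells are the clusters with means under 1 UMI per 10000 for both Xist and Ptprc.

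Counts of each class were added up per tumour. Where every tumour had 50 or more cells of the class, they were tested with edgeR 4.0.16 in R 4.3.3 (quasi-likelihood test, TMM, filterByExpr, two-sided, Benjamini-Hochberg over all genes of the class, threshold 0.05). In tests CPM is after TMM, elsewhere without it. Differences between classes were tested as class by group terms with the tumour as block. Cell shares were tested on cell numbers with the same test. The steps were tested on simulated data with known changes. Of 5 members, 5 were tested in Xist-low cells and in all analysed cells, 4 in fibroblasts (not Cxcr2), 4 in phagocytes and 4 in neutrophils (not Cxcl5).

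Named genes are all members, list genes that passed in Xist-low cells, fibroblasts, phagocytes or neutrophils, Il1b, Il17a, Csf3 and Csf3r in classes where they act or are made, the 5 genes most correlated with each member (mean of at least 10 CPM), and Hnrnpa2b1. Intervals and limits from a count of 0 (3 counts) cover counting error only. Coordinates come from the GENCODE annotation of GRCm38. Alternatives were DESeq2 1.42.0, no filter on low counts, each tumour left out, the replicate number as a block, doublets kept, Leiden resolution 2.0 and thinning to 1000 UMIs per cell. Added after seeing the data were subtraction of free RNA, leaving out a cluster of few UMIs, fits within clusters and a crossed pairing.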

Additional observations from a re-analysis of the deposited data

Results flagged for a closer look

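The KO against WT change of Cxcl1 differed between Xist-low cells and neutrophils, by 1.89 on the log2 scale in the test of the difference itself (SE 0.452, edgeR adjusted p = 0.0279). Cxcl1 had 457 and 371 CPM in Xist-low cells of KO tumours against 222 and 121 CPM in WT tumours, while neutrophils had 111 and 104 CPM in KO tumours against 90.4 and 207 CPM in WT tumours. The Cxcl2 change differed between the same classes by 1.87 (SE 0.456, edgeR adjusted p = 0.0352). However, the Xist-low Cxcl2 level in CPM lay close to or below that of T and NK cells. Whether it is background was not tested. Over 5 alternatives the adjusted p-values of edgeR or DESeq2 ran from 7.02e-08 to 1.0 for Cxcl1 and from 4.5e-09 to 1.0 for Cxcl2. Without WT tumour 2 the Cxcl1 difference was 0.27. The neutrophil values of Cxcl1 rest on 152 and 45 UMIs in KO tumours and on 5 and 74 UMIs in WT tumours, where the 5 came from 50 neutrophils and the 74 from 20 cells of WT tumour 2 that held the gene.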

How the results depend on the processing

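Set against the alternatives, results stayed the same 392 times, meaning direction and side of the threshold for values, or counts within 1.5 times. Values passed the threshold newly 50 times, lost it 27 times and changed sign 21 times, and counts moved by over 1.5 times 31 times. With 2 tumours a group, calls depended on the setting, and the cause was not tested. The count of changed genes, 1238 in Xist-low cells, was 2727 with DESeq2, 3835 with no filter on low counts and 814 after thinning. In fibroblasts, against 0, it was 50 with DESeq2 and 302 with no filter. In phagocytes, against 0, it was 489 with DESeq2, 1440 with no filter and 105 after thinning. In neutrophils, against 0, it was 9 with DESeq2 and 23 with no filter. Over all analysed cells, against 3521, it was 5335 after thinning. The replicate numbers were not taken as pairs, since same-numbered tumours deviated against each other (r = -0.234 in Xist-low cells, -0.604 in fibroblasts, -0.324 in phagocytes, -0.015 in neutrophils and -0.349 over all cells). With the replicate block the counts were 59 in neutrophils and 2225 over all cells. With crossed pairing, added after seeing the data, they were 3405 in Xist-low cells, 137 in fibroblasts, 1386 in phagocytes and 5928 over all cells.

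Cxcl1 in Xist-low cells passed with DESeq2 (1.27), no filter (1.26), the replicate block (1.33), doublets kept (1.28), Leiden resolution 2.0 (1.27), thinning (1.04), free RNA subtracted (1.29) and within cluster 12 (2.33), and was -0.13 within cluster 3. Cxcl2 there passed with no filter (1.65), the replicate block (1.81), doublets kept (1.44), thinning (1.45) and within clusters 0 (1.49) and 5 (1.68). Cxcl3 there passed with DESeq2 (2.25) and no filter (2.22), and Cxcl5 with no filter (2.05) and the replicate block (2.25). Cxcr2 there was -0.09 with doublets kept and -0.33 within cluster 0. Tnfaip3 and Zc3h12a were -0.22 and -0.04 within cluster 3, Nfkbiz lost its call within clusters 3 and 5 (0.44 and 1.24), Nfkbia within clusters 0, 3 and 5 (1.04, 0.34 and 0.88), Nfkb1 within clusters 0 and 3 (0.68 and 0.50), Tnfaip3 within cluster 5 (1.39) and Zc3h12a within clusters 0 and 5 (0.93 and 1.01) and after thinning (0.82). In fibroblasts DESeq2 and no filter put Cxcl1 (2.25 and 2.28), Cxcl2 (2.76 and 2.78), Cxcl3 (5.99 and 5.88) and Cxcl5 (2.63 and 2.63) past the threshold, and also Csf3 (3.27 and 3.25). In phagocytes Cxcl1 was -0.11 within cluster 7 and passed within cluster 14 (1.81). Cxcl2 was -0.73, -0.84 and -0.91 within clusters 7, 8 and 15. Cxcl3 passed with no filter (1.16) and was -1.28 within cluster 8. Il1b was -0.22 and -1.05 within clusters 7 and 8. With no filter, Cxcl2 and Cxcr2 in neutrophils were 0.02 and 0.03. In T and NK cells Cxcl1 was -0.20 after thinning, Cxcl2 passed with no filter (0.86), without KO tumour 2 (1.01) and without WT tumour 2 (0.94), and Il17a passed at Leiden resolution 2.0 (3.34). Over all analysed cells Cxcl1 passed with DESeq2 (1.00) and no filter (0.97), and Cxcl3 with no filter (2.81). The differences between Xist-low cells and neutrophils lost their calls with DESeq2 (1.61 for Cxcl1 and 1.82 for Cxcl2).

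Leaving out 1 tumour at a time gave counts of 237 to 2223 in Xist-low cells, 1 to 552 in phagocytes, 0 to 106 in neutrophils and 1095 to 3269 over all cells. In Xist-low cells the log2 fold changes were 0.89 to 1.77 for Cxcl1, 1.13 to 2.50 for Cxcl2, 0.39 to 3.04 for Cxcl3, 1.37 to 3.59 for Cxcl5 and -0.02 to 1.00 for Cxcr2. In fibroblasts the count stayed at 0, and the ranges were 1.66 to 3.26 for Cxcl1, 2.08 to 4.09 for Cxcl2, 4.55 to 9.03 for Cxcl3 and 1.93 to 4.11 for Cxcl5. Cxcl3 ran from 0.19 to 1.76 in phagocytes. In neutrophils Cxcl1 ran from -0.88 to 0.45, Cxcl3 from -0.02 to 1.43 and Cxcr2 from -0.47 to 0.31. In T and NK cells Cxcl1 ran from -0.26 to 1.34 and Il17a from -0.01 to 0.86. Over all analysed cells the ranges were 0.60 to 1.49 for Cxcl1, 1.29 to 2.66 for Cxcl2, 1.18 to 3.71 for Cxcl3, 2.79 to 5.41 for Cxcl5 and 0.32 to 2.87 for Cxcr2. The log2 ratio of neutrophil shares ran from 0.89 to 3.86, and the differences between Xist-low cells and neutrophils from 0.27 to 2.60 for Cxcl1 and from 1.26 to 2.57 for Cxcl2. The settings with doublets kept and with thinning were not run in neutrophils, where WT tumour 1 fell under 50 cells. The planned free RNA estimate from the median over marker lists exceeded 100% in some classes and was not run.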

Other observations

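Vessel-associated cells also held Cxcl1 and Cxcl2, in numbers too small for a test. Mural cells had 2150 and 1737 CPM of Cxcl1 in KO tumours (44 and 53 cells), against 620 CPM in WT tumour 1 (30 cells), while WT tumour 2 gave 2 mural cells without a Cxcl1 UMI, which allows up to 764 CPM. Mural Cxcl2 was 1185 and 902 CPM in KO tumours and 108 CPM in WT tumour 1. Endothelial cells, which line the vessels, had 227 and 201 CPM of Cxcl1 in KO tumours (51 and 76 cells) and 35.1 and 8.78 CPM in WT tumours (42 and 17 cells), the last from 1 UMI. In both classes the KO values were above the WT values. Dendritic cells had 12.8 and 14.4 CPM of Cxcl1 in KO tumours and 34.5 and 34.1 CPM in WT tumours, from 12 and 10 UMIs in KO tumours and 16 and 6 UMIs in WT tumours.

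Phagocytes with a Cxcl1 UMI also held Cxcl2 more often than those without. Among phagocytes thinned to 1000 UMIs, 75.5% and 70.6% of cells with Cxcl1 also held Cxcl2 in KO tumours and 69.8% and 66.7% in WT tumours. Of phagocytes without Cxcl1, 55.8% and 41.2% held Cxcl2 in KO tumours and 43.4% and 37.3% in WT tumours. In neutrophils, cells with and without a Cxcr2 UMI both held Cxcl2. In KO tumours cells with Cxcr2 had 148 and 165 Cxcl2 UMIs per 10000, and in WT tumours 170 and 121. Cells without Cxcr2 had 165 and 152 in KO tumours, and 347 and 221 in WT tumours. These values are descriptions of cells within tumours and were not tested.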
